A study of Mus musculus with 4 samples.

Results

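The Hox genes of clusters a to d were followed through the probe sets, groups of short oligonucleotides that each report on a transcript, whose only listed gene symbol is such a gene. There were 38 of them among 12488 probe sets on the array, and they stood for 31 Hox genes of 8251 genes named in this way. The RefSeq gene table lists 39 Hox genes, and the other 8 were not analysed here. A further 5 probe sets were not counted, 3 because they list a pair of Hox symbols and 2 because they belong to the antisense gene Hoxa11os.

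Hox genes encode homeodomain transcription factors that are arranged in 4 clusters, Hoxa to Hoxd. Genes of equal number in different clusters, the paralogues, descend from a common ancestor. In the embryo the low-numbered genes of a cluster are switched on early and toward the head, and the high-numbered genes later and toward the tail. Adult smooth muscle cells, fibroblasts and fat cells keep part of this regional code. In the vessel wall the descending aorta is known to carry more Hox transcript than the arch, whose smooth muscle comes largely from neural crest.

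RNA from the aortas of adult male C57BL/6J mice was pooled and hybridised to 4 Affymetrix arrays. The mice of 2 arrays had received 25 mg/kg of rosiglitazone per day for 21 days, a thiazolidinedione and agonist of the nuclear receptor PPARγ, and those of the other 2 had received vehicle for 21 days. The comparison asks which aortic transcripts differ after chronic treatment with the drug. By title the rosiglitazone arrays are numbers 1 and 2 and the vehicle arrays 3 and 4. The labels leave unsaid which segment of the aorta was taken, whether each array had its own pool, and whether the fat around the vessel was removed. The p-values thus rest on a spread among arrays that may be only technical, and no segment could be compared with another.

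Trimmed mean intensities were equal on the 4 arrays, at 1501. The 3' signal over the 5' signal of the actin control transcript was 7.74 on rosiglitazone array 1, 9.62 on array 2, 8.88 on vehicle array 3 and 11.9 on array 4. For Gapdh it was 8.79, 10.8, 11.1 and 11.1 in the same order. Rosiglitazone array 1 had the lowest ratio of both transcripts, the Gapdh ratios did not overlap between the groups, and the part of RNA quality in the Hox values was not tested. Smooth muscle markers were present, all 8 of those measured lying above the intensity limit of the tests, and brown fat markers were bright as well, with summed intensities of 411799 to 450343 in the rosiglitazone group against 291346 to 296169 in the vehicle group. For the 21 Hox probe sets tested, rosiglitazone array 1 had lower values than the other 3 arrays by median and vehicle array 4 higher ones. Over all 38 the median intensity was 356 on rosiglitazone array 1, 551.5 on array 2, 513 on vehicle array 3 and 514 on array 4. The counts of directions are therefore also given without each array. The number of arrays limits the precision of all values below.

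An intensity of 414, the 40th percentile of all values pooled, was used to separate brighter from dim probe sets, since no detection calls were at hand. On this measure 21 of the 38 Hox probe sets, or 55.3%, had a mean at or above the limit, against 57.4% of the 12384 other probe sets. As a family the Hox probe sets were thus near the share of the array as a whole. They were rarely bright. At the 60th percentile, an intensity of 906, the share was 23.7% for Hox and 37.95% for the others. On all 4 arrays 12 of 38 lay at or above 414, or 31.6% beside 44.4% of the other probe sets, and 13 lay below it on all 4, or 34.2% beside 23.4%. Of these 13, 4 lay on all 4 arrays under 148, the 20th percentile, which served as a floor for the log2 values. The members nearest the limit were Hoxc5, with a mean of 418, just above it, and Hoxa13, with a mean of 409, just below it.

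The share above the limit differed by paralogue number. Over probe sets it was 15 of 20 for numbers 4 to 8, 3 of 6 for numbers 1 to 3 and 3 of 12 for numbers 9 to 13. Taking the brightest probe set of each gene, 13 of 14 genes with paralogue numbers 4 to 8 had a mean above the limit, the exception being Hoxb4. Among all named genes this share was 66.2%, and picking the brightest favours genes with several probe sets. Of the 5 Hox genes with more than 1 probe set, all but Hoxd1 have numbers 4 to 8. These, Hoxa4, Hoxa6, Hoxb8 and Hoxd8, each also had a probe set below the limit. By the brightest probe set, 3 of 5 genes with numbers 1 to 3 and 3 of 12 genes with numbers 9 to 13 had a mean above the limit. The 3 high-numbered genes above the limit were Hoxa9, Hoxc9 and Hoxb13. By cluster, the limit was passed by 6 of 10 Hoxa genes, 7 of 9 Hoxb genes, all 5 measured Hoxc genes and 1 of 7 Hoxd genes, which was Hoxd8. The counts by cluster and by paralogue number share genes. Of the 7 Hoxd genes 5 have numbers 9 to 13, and 0 of those passed the limit. The Hoxc genes include 1 with such a number. These counts are a description with no test. Probe sets differ in brightness by their design, so the level of one gene cannot be set against that of another, and Hoxc numbers 10 to 13 were not analysed here. With each array left out in turn the count was 12 or 13 for numbers 4 to 8, 3 for numbers 1 to 3 and 3 to 5 for numbers 9 to 13.

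**Figure D1:**
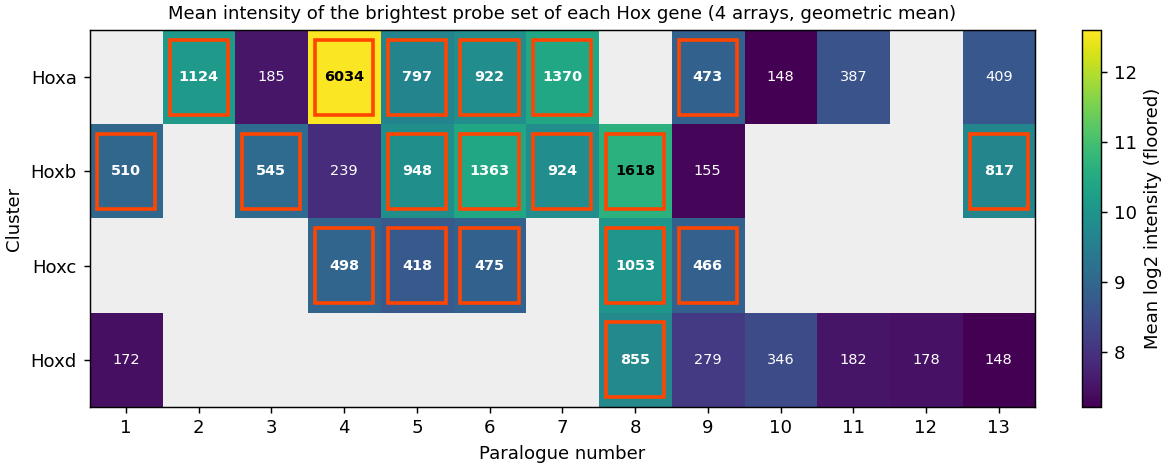
Mean intensity over 4 arrays (geometric mean after the floor) of the brightest probe set of each of 31 Hox genes, by cluster (rows) and paralogue number (columns); orange frames and bold print mark means at or above 414, and grey cells have no gene or no member probe set. The framed genes gather at paralogue numbers 4 to 8, while the Hoxd row has 1 framed gene of 7.

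Among the low-numbered genes, which pattern the hindbrain and pharyngeal arches, Hoxa2 had intensities of 1124 and 1120 under rosiglitazone against 930 and 1361 under vehicle. All 4 arrays were above the limit, and the rosiglitazone values lay between the vehicle values. Hoxb1 had 181 and 710 under rosiglitazone against 868 and 606 under vehicle. Hoxb3 had 227 and 987 against 780 and 504. In both Hoxb genes the first rosiglitazone array was the lowest of the 4 and the groups overlapped. Hoxa3 was dim, at 50 and 88 under rosiglitazone against 365 and 142 under vehicle, and both probe sets of Hoxd1 lay between 23 and 269.

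The middle genes of the clusters, which pattern the neck and trunk, made up 15 of the 21 probe sets above the limit. Hoxb6 had 988 and 1337 under rosiglitazone against 1423 and 1834 under vehicle, without overlap. Hoxc8 had 1017 and 1352 against 1183 and 755, and Hoxc4 had 415 and 466 against 551 and 576. Hoxc8 overlapped between the groups and Hoxc4 did not. Hoxa5, which is needed for lung and neck development, had 643 and 900 under rosiglitazone against 641 and 1088 under vehicle. Hoxb7 had 1212 and 553 against 770 and 1415. In these 2 genes the 2 arrays of a group differed by more than the groups did. Hoxa7 had 3109 and 883 under rosiglitazone against 1050 and 1222 under vehicle, so its high mean with rosiglitazone came from the first array alone. Hoxb5 had 409 and 1260 against 1105 and 1419, Hoxc5 had 182 and 734 against 352 and 650, and Hoxc6 had 222 and 668 against 681 and 502. For these 3 genes the first rosiglitazone array was again the lowest. Hoxb4, the middle gene below the limit, had 381 and 180 against 244 and 196.

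Several middle genes had probe sets that disagreed. Hoxa4 had 4. The brightest, built with relaxed probe selection, had 9513 and 5575 under rosiglitazone against 3434 and 7281 under vehicle. A probe set made from the same sequence record gave 11 and 13 against 66 and 21, below the floor on every array. The other two gave 740 and 381 against 578 and 550, and 797 and 619 against 622 and 894. The same pattern of a bright relaxed probe set and a dim partner from 1 record was seen for Hoxa6 and Hoxb8. Hoxb8 had 1712 and 1345 against 1531 and 1944 on the bright one and 49 to 121 on the dim one. Hoxd8 had 990 and 967 against 1021 and 547 on one probe set and 101 to 345 on the other. Without the 9 probe sets of special design, 55.2% of 29 Hox probe sets had a mean above the limit.

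Of the genes numbered 9 to 13, which pattern the lumbar, sacral and limb regions, most were dim. Hoxa9 had 284 and 645 under rosiglitazone against 594 and 460 under vehicle, and Hoxc9 had 598 and 326 against 460 and 524. Hoxb13, a gene of the tail bud and prostate, had 708 and 1374 under rosiglitazone against 759 and 604 under vehicle, above the limit on all 4 arrays. The groups overlapped in all 3 of these genes. Hoxa10 lay between 22 and 120 and Hoxd13 between 73 and 101, both below the floor on every array, and Hoxb9 lay between 64 and 178. Hoxa11 had 538 and 208 under rosiglitazone against 249 and 806 under vehicle, so each group had 1 array above the limit. Hoxd11 and Hoxd12 lay between 76 and 268. Hoxd9 had 256 and 550 under rosiglitazone against 197 and 219, without overlap but with 1 array of 4 above the limit. Hoxd10 had 381 and 537 against 475 and 118. The probe sets of Hoxd9 and Hoxd10 list the same sequence record, so they may not be independent.

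**Figure D2:**
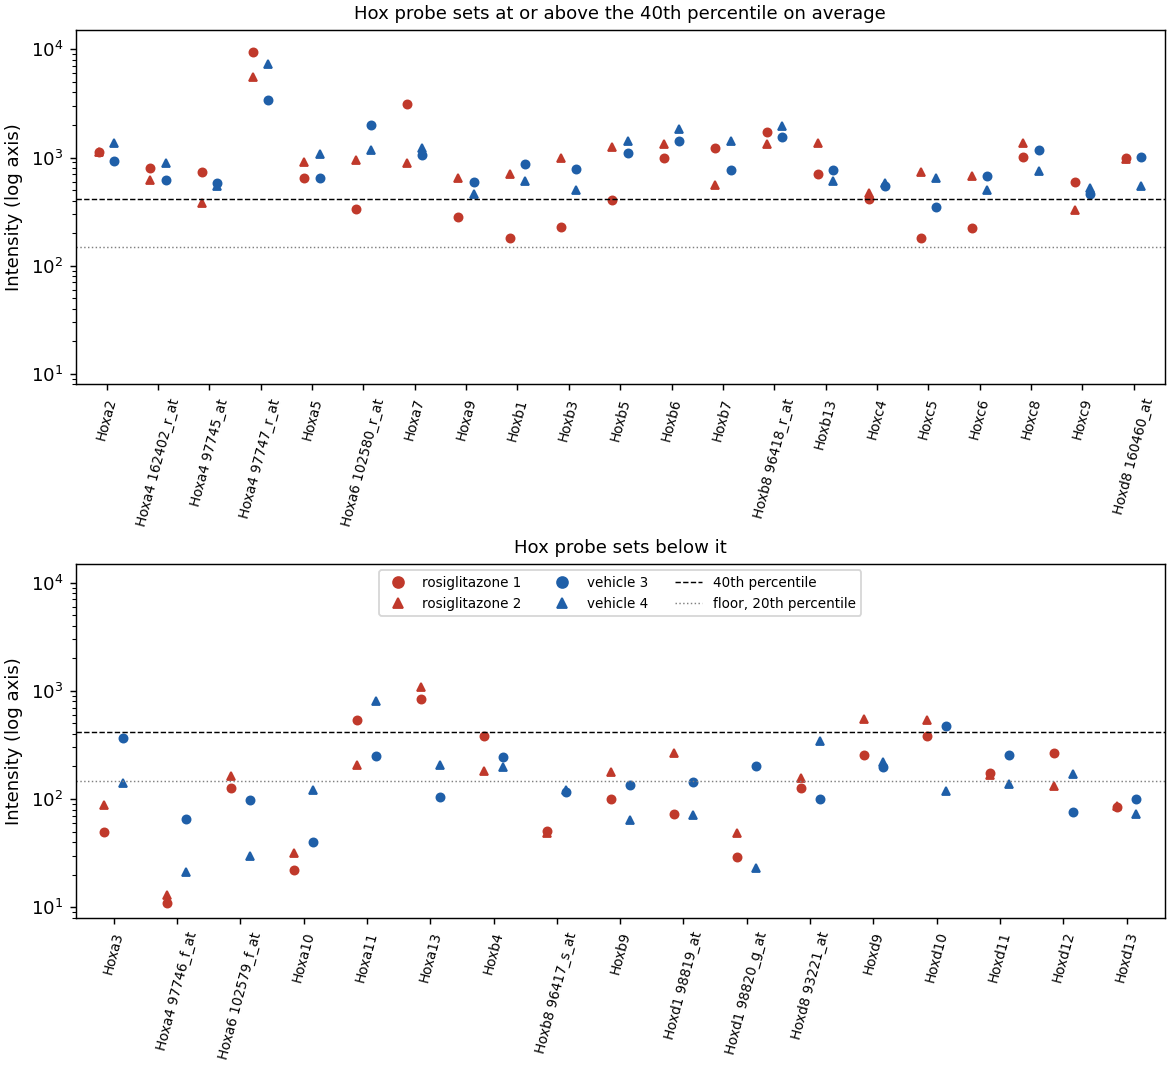
Intensity (log axis) of each of the 38 Hox probe sets on each array, with red for rosiglitazone, blue for vehicle, circles for the lower-numbered array of each group and triangles for the other. The dashed line is the 40th percentile (414) and the dotted line the floor (148); red circles lie apart below the other points for Hoxa6, Hoxb1, Hoxb3, Hoxb5, Hoxc5 and Hoxc6.

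Hoxa13 stood apart in the other direction. This gene of the distal limb and hindgut had 839 and 1097 under rosiglitazone against 104 and 205 under vehicle. Both rosiglitazone arrays were above the limit and both vehicle arrays below it, 1 of them under the floor. The mean log2 intensity was 9.91 ± 0.27 under rosiglitazone against 7.44 ± 0.33 under vehicle (SD, n = 2 each), a log2 fold change of 2.46. The floor replaced 1 vehicle value, which narrows that SD and pulls the change toward 0. Its mean of 409 missed the limit, so it was not among the probe sets tested. When the limit was dropped the adjusted p was 0.367 (limma, unadjusted p = 0.0135, standard error 0.48), so the difference did not pass. With the floor raised to the limit the log2 fold change was 1.21 and the adjusted p 0.531.

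The start regions of Hoxa13, of Hoxa6, which had the smallest p among the tested members, and of Hoxd13, which was under the floor on every array, are shown as examples of the sequence from which such transcripts begin. Each window runs from 250 bases before to 50 bases after the RefSeq start, 5′ to 3′ on the gene's strand, in build GRCm38.p6, with CG dinucleotides in capitals. They lie at chr6:52260831-52261130 on the minus strand, at chr6:52208623-52208922 on the minus strand and at chr2:74667975-74668274 on the plus strand.
Hoxa13: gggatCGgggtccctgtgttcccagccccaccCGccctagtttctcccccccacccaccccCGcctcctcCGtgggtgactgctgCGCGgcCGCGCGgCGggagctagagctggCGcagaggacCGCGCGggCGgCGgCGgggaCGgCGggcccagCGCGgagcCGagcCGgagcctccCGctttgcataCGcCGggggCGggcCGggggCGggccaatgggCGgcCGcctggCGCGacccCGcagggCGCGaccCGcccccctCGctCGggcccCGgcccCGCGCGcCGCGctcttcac
Hoxa6: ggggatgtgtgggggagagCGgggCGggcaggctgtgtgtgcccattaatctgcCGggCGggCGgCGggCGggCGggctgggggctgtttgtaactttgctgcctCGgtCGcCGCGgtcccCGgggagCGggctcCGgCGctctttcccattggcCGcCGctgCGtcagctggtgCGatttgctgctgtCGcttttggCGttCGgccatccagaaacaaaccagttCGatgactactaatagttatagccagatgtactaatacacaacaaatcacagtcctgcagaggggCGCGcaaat
Hoxd13: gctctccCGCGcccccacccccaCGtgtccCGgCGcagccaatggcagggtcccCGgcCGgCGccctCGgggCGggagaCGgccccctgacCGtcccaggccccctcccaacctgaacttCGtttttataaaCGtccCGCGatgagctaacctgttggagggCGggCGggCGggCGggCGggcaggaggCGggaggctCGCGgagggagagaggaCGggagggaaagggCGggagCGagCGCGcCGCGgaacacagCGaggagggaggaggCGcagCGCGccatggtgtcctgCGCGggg

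The 3 windows are rich in CG, with 45, 26 and 37 dinucleotides, against a median of 7 over 32851 windows of all genes in the table. Windows were found for 20 of the 31 Hox genes, 22 windows in all, with a median of 14.5 and a range of 4 to 45. The median was 9 over 9 windows of genes with a tested probe set and 20 over 13 windows of genes without one, and both ranges began at 4. On both strands, the nuclear receptor half-site AGGTCA was present in 5 of 22 Hox windows and in 16.3% of all windows. The repeat AGGTCANAGGTCA, the form that PPARγ binds with RXR and which contains that half-site, was in 0 of 22 and in 0.0396% of all windows. TGATNNAT, a form bound by Hox proteins with Pbx, was in 4 of 22 and in 8.85%. A match is only a run of letters, and these short windows hold few of a gene's regulatory sites.

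Rosiglitazone and vehicle were compared over all 7134 probe sets at or above the limit with limma, of which 26, or 0.364%, passed an adjusted p of 0.05. The 21 Hox probe sets tested stand for 19 genes. None of them (0 of 21) passed, and adjusted p ranged from 0.408 to 0.997 (limma, Benjamini-Hochberg adjustment over all probe sets). At an unadjusted p under 0.05 there was 1, Hoxa6, lower with rosiglitazone, or 4.76%, where 10.9% of all probe sets tested were past this mark (5.76% lower). Groups did not overlap for 3 of 21, Hoxa6, Hoxb6 and Hoxc4, all lower with rosiglitazone, or 14.3%, against 40.8% of all probe sets tested (21.8% lower and 19% higher). The share of Hox members without overlap was thus below that of the array.

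Hoxa6 had the largest difference among those tested. Its intensities were 331 and 940 under rosiglitazone against 1991 and 1168 under vehicle, or -1.45 on the log2 scale (limma, standard error 0.58, adjusted p = 0.408, unadjusted p = 0.0337). It moved to -0.70 without rosiglitazone replicate 1, and to -2.20 when rosiglitazone replicate 2 was left out. These values are from the bright relaxed probe set. The dim Hoxa6 probe set had 126 and 162 under rosiglitazone against 99 and 30 under vehicle. It was thus higher with rosiglitazone, but under the floor on 3 arrays. Hoxb1 followed with -1.02 (95% interval -2.84 to 0.81), Hoxb5 with -0.80 and Hoxc6 with -0.60. Leaving out rosiglitazone replicate 1 moved Hoxb1 to -0.03, Hoxb5 to 0.0090 and Hoxc6 to 0.19. The highest values were 0.55 for Hoxa7, 0.54 for Hoxb13 and 0.54 for the bright Hoxa4 probe set. Hoxa7 was at -0.36 without rosiglitazone replicate 1. With 1 array left out Hoxb13 ran from 0.064 to 1.02 and the bright Hoxa4 probe set from 0.00030 to 1.08.

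A log2 fold change above 0 was found in 5 of 21 members, or 23.8%, and in 48.1% of all probe sets tested. The median over the 21 was -0.19, beside -0.02 over all probe sets tested. The median over all 38 members, the dim ones included, was -0.09. Without each array in turn the median over the 21 ran from -0.35 to -0.01, and it was -0.01 without either rosiglitazone array. Without rosiglitazone array 1 the values above 0 were 10 of 21, or 47.6%, beside 50.7% of all probe sets tested. They were 9 without rosiglitazone array 2, 8 without vehicle array 4 and 5 without vehicle array 3, beside 49.1%, 45.6% and 47.4% of all probe sets tested. The 95% intervals were wide. Of 21, 20 held 0, and 2, those of Hoxa2 (-0.91 to 0.90) and the bright Hoxb8 probe set (-0.95 to 0.58), lay within 1 of 0 on the log2 scale. For the other 19 a change of 2-fold in at least 1 direction lay inside the interval.

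**Figure D3:**
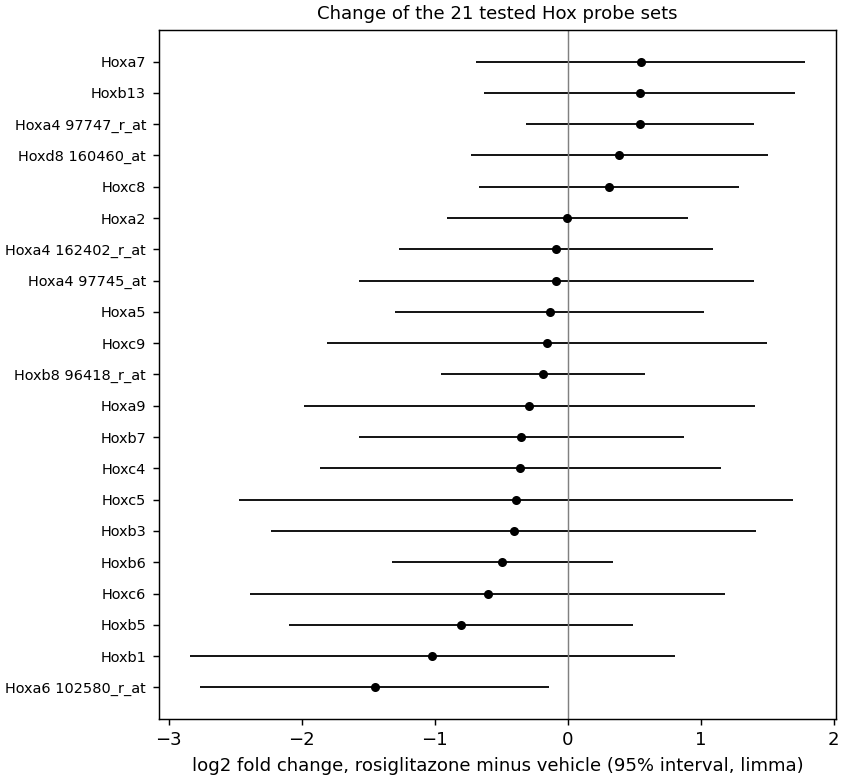
Log2 fold change of the 21 tested Hox probe sets, rosiglitazone minus vehicle, with 95% intervals from limma (2 arrays a group). The points run from -1.45 for Hoxa6 to 0.55 for Hoxa7, and 20 of 21 intervals hold 0.

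The spread between arrays of a group was wider over the tested Hox probe sets than over others. The others were not matched for brightness. The median within-group SD of log2 intensity was 0.51 over the 21 Hox probe sets and 0.36 over 6243 other probe sets in the same range of mean intensity. This range ran from the lowest to the highest Hox mean and held most of the 7134 probe sets tested. Median intensity was 817 over the 21 and 1354 over all probe sets tested. The part of brightness in the spread was not tested. The median absolute difference between the rosiglitazone arrays was 0.96 over the Hox probe sets and 0.41 over all probe sets tested. Between the vehicle arrays it was 0.52 and 0.35. Hox genes sit side by side and can share transcripts and probes, so these values are not independent of each other and were given no test.

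Over the 21 tested Hox probe sets, rosiglitazone array 1 and vehicle array 4 lay on opposite sides of the other arrays by median. On rosiglitazone array 1, 16 of 38 Hox probe sets were at or above 414, against 21 or 22 on each of the other 3. It was the lowest of the 4 arrays for 9 of 21 tested Hox probe sets, or 42.9%, and for 27.4% of the others in the same range of intensity. Against the mean of the other 3 arrays it was lower for Hoxb1 (a log2 difference of -1.99), Hoxa6 (-1.97), Hoxb3 (-1.68), Hoxb5 (-1.62), Hoxc5 (-1.60) and Hoxc6 (-1.46). In contrast it was higher for Hoxa7 (1.58) and, by 0.88, for the bright Hoxa4 probe set, so the array did not have low Hox signal throughout. The median difference over the 21 was -0.28 for rosiglitazone array 1 and 0.33 for vehicle array 4. Vehicle array 4 was the highest of the 4 arrays for 8 of 21, or 38.1%, beside 25.4% of the others in the same range. Rosiglitazone array 2 differed from vehicle array 3 by a median of 0.27, less than any other pair of arrays did over these probe sets.

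**Figure D4:**
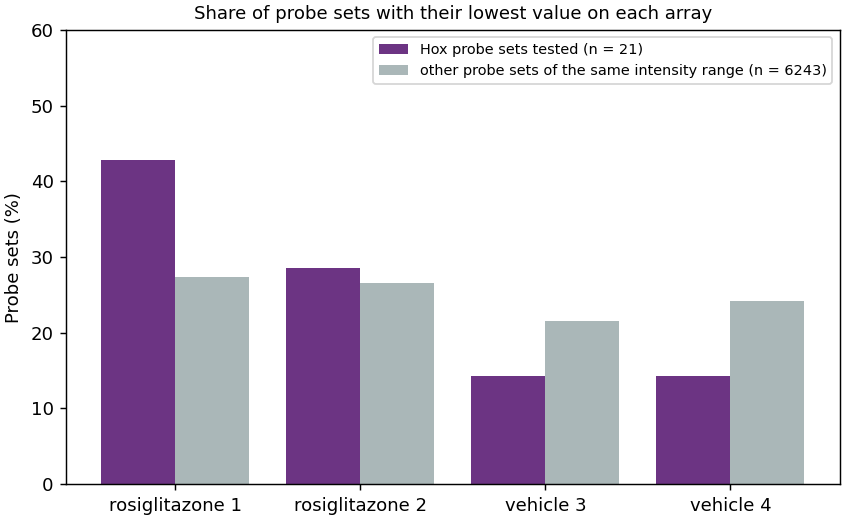
Share of probe sets (%) that had their lowest intensity on each of the 4 arrays, for the 21 tested Hox probe sets (purple) and 6243 other probe sets in the same range of mean intensity (grey). Rosiglitazone array 1 held the lowest value of 42.9% of the Hox probe sets and 27.4% of the others.

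Hox proteins bind DNA together with the homeodomain cofactors of the Pbx, Meis and Pknox families. Of 6 cofactor genes measured 3 were tested and 0 passed in limma. Pbx3 had 549 and 487 under rosiglitazone against 1114 and 1634 under vehicle, a log2 fold change of -1.38 without overlap (adjusted p = 0.321, unadjusted p = 0.0168). Another Pbx3 probe set had -0.24 (adjusted p = 0.927), and one below the limit had -0.51. Pbx2 had 733 and 832 against 771 and 892, and Pknox1 had 1404 and 998 against 1347 and 877, both with overlap. Meis1, Meis2 and Meis3 were dim, at 15 to 246, 28 to 565 and 59 to 125.

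Genes that act upstream of the clusters, the Cdx factors, retinoid receptors and retinoid enzymes, had 5 of 16 measured genes tested and 0 past the threshold in limma. The retinoid X receptor Rxrb had -0.81 on the log2 scale (adjusted p = 0.386) and Aldh1a1, a retinaldehyde dehydrogenase, -0.73 (adjusted p = 0.47). Rxra, the partner of PPARγ, had 0.31, while another Rxra probe set had 1.62 (adjusted p = 0.149). Aldh1a3 had -0.42. Cdx1, Cdx2 and Cdx4, which switch on trunk Hox genes in the embryo, were all below the limit, as were Rara and Rarg.

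The Polycomb and Trithorax proteins keep Hox genes silent or active. The list used for them also holds Ctcf and Rad21, which belong to neither group. Of its 20 genes measured 13 were tested and 0 passed in limma. Of these 13, 5 were above 0 and 8 below. Phc2, a Polycomb subunit, had 1578 and 1105 under rosiglitazone against 382 and 285 under vehicle, higher on both rosiglitazone arrays (limma, adjusted p = 0.199, unadjusted p = 0.00574). The related Phc1 had -1.35 (adjusted p = 0.58), the histone demethylase Kdm6a 0.83 and the Polycomb subunit Eed -0.63.

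Other homeobox genes had 7 of 22 tested and 0 past the threshold in limma. Hopx had -0.64, Pitx1 -1.06, Six2 -0.75 and Meox2 -0.75, with adjusted p from 0.548 for Hopx to 0.823 for Meox2. Genes that mark the outflow tract, neural crest and thoracic vessel had 9 of 19 tested and 0 passed. Hand1 had -1.85 (limma, adjusted p = 0.252) and -0.94 on a second probe set. Gata6 had 1.77 (adjusted p = 0.438), but 0.20 and -1.74 on other probe sets, both below the limit. Gata4 had -1.23 and Tfap2a 0.81. Over these 5 lists of regulators and position genes, 37 genes were tested and 0 passed in limma.

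Summed intensities did not overlap between the groups for 6 of 12 lists of cell type markers and overlapped for the other 6, endothelial, erythrocyte, Schwann cell and neuron, skeletal muscle, cardiac muscle, and adrenal cortex and kidney. Smooth muscle markers had summed intensities of 57120 and 63207 under rosiglitazone against 117752 and 141276 under vehicle, with all 8 below 0, a median log2 fold change of -1.19, and Tagln alone past the threshold in limma (adjusted p = 0.0455). Fibroblast markers had 90822 and 105152 against 136844 and 161071, with all 9 below 0, a median of -0.59 and 0 past the threshold. These values are from the brightest probe set of each gene, which for Col1a2 had -0.96. Another tested Col1a2 probe set was higher with rosiglitazone, at 5761 and 6483 against 4262 and 4320. Its log2 fold change was 0.51 (limma, adjusted p = 0.459). The other tested probe sets of Col1a1, Col3a1 and Pdgfra were below 0. Brown fat markers had 6 of 7 above 0, a median of 0.44 and 1 past the threshold, Fabp3. White fat markers had summed intensities of 204927 and 224706 against 148356 and 158043, most of it from Adipoq (165554 and 195068 against 125080 and 136822). By gene they were mixed, with 4 of 7 above 0, 3 below, a median of 0.34 and 0 past the threshold. Of blood cells, in which some Hox genes are active as well, macrophage and neutrophil markers had summed intensities of 12987 and 12235 against 158741 and 226939. Past the threshold were 3 of 8, S100a8, S100a9 and Cd14, all lower, beside 0.364% of all probe sets tested. The other 6 markers measured summed to 7800 and 5511 against 9784 and 12658. Lymphocyte markers had 5177 and 4150 against 6501 and 6327, with all 4 tested below 0 and 0 past the threshold. Much of the sum was Ms4a1, at 2269 and 2062 against 2224 and 2241. The 5 markers below the limit were mixed, with Cd3e and Cd8a higher and Cd3g lower, each without overlap. The part of these cell types in the Hox values, whose median was -0.19, was not tested. In pooled tissue, fewer cells of a type and less RNA per cell cannot be told apart.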

How the data were processed

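The table deposited by the authors holds linear intensity values, whole numbers with a column for each array. Software and scaling: not given in the sources used here. Gene names are those of the platform annotation, and 0 symbols changed when they were updated by gene identifier in a RefSeq table of GRCm38.p6. A floor of 148 (20th percentile of all values) was applied, followed by log2. Probe sets with a mean log2 at or above that of 414 (40th percentile) were tested, 7134 of 12422 without the 66 controls. The two-sided test was limma 3.58.1 in R 4.3.3 (lmFit, eBayes, trend on intensity), and p-values were adjusted by Benjamini-Hochberg over all probe sets tested. The model had 2 residual degrees of freedom. The script was tested on simulated data in which 200 probe sets were changed. Of these, 0% were called at a log2 change of 1, 0% at 2 and 59.3% at 4. A count of 0 past the threshold thus does not show that a gene was unchanged. The simulated shares are not a limit for the real arrays, where Tagln passed at -1.26 and Fabp3 at 1.55 on the log2 scale. All Hox members are reported. From each list of regulators and position genes, the tested members with the smallest p, up to 4, are named, and for the cofactors every measured member. Each gene is given by its brightest probe set. Of the cell type markers, those past the threshold are named, and others where they weigh on a sum or differ from their list. Members and lists were chosen with earlier results of these data known. The pattern of rosiglitazone array 1 and vehicle array 4, the counts with each array left out, Hoxa13, the sequence windows and the nearness of members to the limit were chosen for description after the values were seen. Alternatives were other floors, filters, scalings and variance models and leaving out each array. Promoter windows came from the RefSeq-based table.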

Additional observations from a re-analysis of the deposited data

How the results depend on the processing

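No paired analysis was possible because the labels give the groups no shared replicate numbers. No Hox probe set (0) passed an adjusted p of 0.05 in limma under any of the 10 alternatives, with or without the filter, and the lowest adjusted p was 0.095, for Hoxa6 without rosiglitazone replicate 2. The number of Hox probe sets at an unadjusted p under 0.05 was between 0 and 4. The count over all probe sets went from 26 to 0 with a floor at the 40th percentile, 0 with no filter, 17 with median centring and 7 without the intensity trend, and from 1 to 78 with 1 array left out. A floor at the 40th percentile let every probe set past the filter. That setting and the one with no filter thus both tested 12422 probe sets. The share of Hox probe sets above the limit was 73.7% with the limit at the 20th percentile, beside 81.8% of the other probe sets. At the 60th it was 23.7%, beside 37.95%. The 20th percentile is the floor itself, so its shares rest on means taken before the floor. Hoxa13 stayed higher with rosiglitazone, from 1.21 with a floor at the 40th percentile to 2.70 without vehicle replicate 4.

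The sign of Hoxa2 turned with median centring (0.079) and with quantile normalization (0.063), and that of Hoxb3 (0.028), Hoxc5 (0.088) and Hoxc9 (0.019) with a floor at the 40th percentile. With 1 array left out, log2 fold changes ran from -0.28 to 0.27 for Hoxa2, -0.35 to 0.18 and -0.57 to 0.39 for 2 Hoxa4 probe sets, -0.52 to 0.25 for Hoxa5, -0.36 to 1.46 for Hoxa7, -0.88 to 0.30 for Hoxa9, -1.47 to 0.65 for Hoxb3, -1.61 to 0.0090 for Hoxb5, -0.92 to 0.22 for Hoxb7, -1.39 to 0.62 for Hoxc5, -1.40 to 0.19 for Hoxc6, -0.013 to 0.64 for Hoxc8, -0.59 to 0.28 for Hoxc9 and -0.061 to 0.84 for Hoxd8. The cause was not tested. Signal over background cannot be judged for dim members.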
